A study of Mus musculus with 9 samples.

Results

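Of 49 genes of the interferon response, taken as a list of gene symbols, 42 were matched to a row of the 16492 gene rows on the arrays and compared between RAW-FoxQ1 and RAW-vector clones. In RAW-FoxQ1 clones 15 of the 42 were lower, 4 were higher and 23 did not pass the test. Over all genes of the arrays 21.4% were lower and 19.6% higher, or 40.9% together. Both subunits of the type I interferon receptor, Ifnar1 and Ifnar2, were lower, as were the antiviral effectors Bst2 and Isg20, the RNA helicase Dhx58, the oligoadenylate synthetase Oas3 and the transcription factor Irf1. Among those that passed, the largest increase in signal was that of Ifit2, at 1.82-fold from a dim level in RAW-vector clones, and the largest decrease that of Bst2, at 3.21-fold. The genes Ddx58, Ifi205, Isg15, Oas1a, Ifit3, Gbp5 and Tgtp1 were not matched to a row and were not analysed here.

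The cells were RAW-264.7, a murine monocyte/macrophage line. RAW-FoxQ1 clones (7.1 to 7.5, n = 5) carried a construct with the coding fragment of murine FoxQ1 in the pEF6/V5-His TOPO vector, and RAW-vector clones (4 to 7, n = 4) carried that vector without an insert. All clones were grown from single cells under blasticidin S at 6 µg/ml and received no further treatment. Each clone was measured on 1 array, and the sources used here do not say whether clones of a group share a founder, so that a shared founder and the construct cannot be told apart. Nor can fewer cells that express a gene be told apart from less RNA in each cell.

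Type I interferons bind a receptor of the subunits IFNAR1 and IFNAR2, whose kinases TYK2 and JAK1 phosphorylate STAT proteins. With IRF9, STAT2 takes part in ISGF3, a factor that binds the interferon-stimulated response element (ISRE) of many promoters, while interferon-gamma acts on the gamma-activated site (GAS). The genes induced include sensors of viral RNA and DNA, enzymes that degrade or edit RNA, proteins that block viral entry, translation or budding, and GTPases that attack the vacuoles of intracellular pathogens. Macrophages hold a basal level of many of these genes without added interferon.

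The promoter windows of the genes were searched for the letters of both elements. RefSeq windows on the build GRCm38.p6, from 250 bases before to 50 bases after the start, were at hand for 31 of the 42 genes, 40 windows in all. The ISRE letters GAAANNGAAA, read on both strands, were in 14 of these 40 windows (35.0%), against 3.44% of 32851 windows of all genes. The GAS letters TTCNNNGAA were in 11 (27.5%), against 8.30% of all windows. Of the 18 windows of genes that were lower in RAW-FoxQ1 clones, 3 held the ISRE letters and 8 the GAS letters. Of the 20 windows of genes that did not pass the test, 11 held the ISRE letters and 2 the GAS letters. A match of letters is a description and does not show that a factor binds there.

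Windows were at hand for 12 of the lower genes and 1 of the higher genes, and 3 of these genes hold the ISRE letters. Dhx58, Parp9, Parp14, Oas2, Ifi204 and Rtp4 passed the test but had no window at hand and were not searched. The windows of the 3 are shown: Bst2 (minus strand of chr8:71537423-71537722), Oas3 (minus strand of chr5:120777610-120777909) and Irgm1 (minus strand of chr11:48871371-48871670). They are written 5′ to 3′ along the gene, with the matches in capitals. Bst2 and Irgm1 each hold 2 matches that overlap, and Oas3 holds 1.
Bst2: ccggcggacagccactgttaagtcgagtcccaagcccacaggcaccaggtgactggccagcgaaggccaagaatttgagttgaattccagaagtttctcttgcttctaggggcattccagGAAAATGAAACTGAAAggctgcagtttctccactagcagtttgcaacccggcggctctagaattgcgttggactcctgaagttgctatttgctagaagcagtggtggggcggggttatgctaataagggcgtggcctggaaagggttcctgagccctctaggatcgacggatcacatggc
Oas3: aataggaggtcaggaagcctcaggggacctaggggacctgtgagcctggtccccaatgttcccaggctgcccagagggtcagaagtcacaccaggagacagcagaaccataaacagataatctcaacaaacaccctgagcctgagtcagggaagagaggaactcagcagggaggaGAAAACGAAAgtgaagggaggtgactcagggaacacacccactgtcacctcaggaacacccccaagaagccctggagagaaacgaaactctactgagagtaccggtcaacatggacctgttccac
Irgm1: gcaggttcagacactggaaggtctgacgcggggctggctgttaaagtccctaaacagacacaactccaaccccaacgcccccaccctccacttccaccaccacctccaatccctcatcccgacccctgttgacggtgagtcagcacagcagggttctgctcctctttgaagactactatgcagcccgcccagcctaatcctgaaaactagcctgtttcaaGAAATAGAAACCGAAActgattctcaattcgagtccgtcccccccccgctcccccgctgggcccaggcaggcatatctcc
The first match began 130 bases before the start of Bst2, 75 before that of Oas3 and 30 before that of Irgm1.

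The receptor and its transducers were lower or did not pass the test, and none was higher. Of 6 measured genes of signal transduction 4 were lower. Expression is given on a log2 scale after the quantile normalization of the authors, so that a difference of 1 is a doubling, and a gene passed the test at an adjusted p under 0.05 (limma, Benjamini-Hochberg over 16492 genes). The counts are to be read against the whole array, where 19.6% of the genes were called higher and 21.4% lower, or 40.9% together. Over all 42 interferon response genes, 15 lower and 4 higher, the median log2 fold change was -0.039, beside -0.014 over all genes. Without RAW-vector clone 4 the counts among the 42 were 2 higher and 11 lower, beside 2885 and 3065 over all genes. Without RAW-FoxQ1 clone 7.4 they were 2 higher and 14 lower, beside 2993 and 3199.

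Ifnar1, the signalling subunit that recruits TYK2, had log2 values of 9.26, 9.20, 9.21 and 9.20 in RAW-vector clones 4 to 7. In RAW-FoxQ1 clones 7.1 to 7.5 they were 8.53, 8.57, 8.61, 8.67 and 8.55. All RAW-FoxQ1 clones lay below all RAW-vector clones, and the gap between the groups exceeded the range within either. The log2 fold change was -0.63 (SE 0.036, limma adjusted p = 1.5e-06).
Ifnar2, the high-affinity binding subunit, measured 10.17, 10.35, 10.32 and 10.17 in RAW-vector clones and 9.56, 9.61, 9.65, 9.77 and 9.71 in RAW-FoxQ1 clones. The groups did not overlap, with a log2 fold change of -0.59 (SE 0.057, limma adjusted p = 3.0e-05). Both genes lie on chromosome 16 in 1 stretch with Il10rb and Ifngr2. Il10rb, a receptor subunit for interleukin-10 and interferon-lambda that is named here after its value was seen, had a log2 fold change of -0.37 (limma adjusted p = 0.0043). For Ifngr2, a subunit of the interferon-gamma receptor, it was 0.23 and did not pass the test (limma adjusted p = 0.155, 95% confidence interval -0.034 to 0.50), but it passed without clone 7.1 (0.33, limma adjusted p = 0.010).

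Irf1, a transcription factor that acts downstream of interferon-gamma, measured 9.45, 9.66, 9.88 and 9.29 in RAW-vector clones and 9.06, 8.85, 8.39, 8.86 and 8.90 in RAW-FoxQ1 clones. RAW-vector clone 7 and RAW-FoxQ1 clone 7.1 were the closest to each other, and the groups did not overlap. The log2 fold change was -0.75 (SE 0.148, limma adjusted p = 0.0026).
Irf9, the DNA-binding subunit of ISGF3, measured 8.14, 8.13, 7.97 and 8.22 in RAW-vector clones and 7.76, 7.62, 7.80, 8.05 and 8.00 in RAW-FoxQ1 clones. Clones 7.4 and 7.5 reached into the RAW-vector range, and the log2 fold change of -0.27 passed the test narrowly (limma adjusted p = 0.038). The call was lost in 6 of the 9 fits that leave out 1 clone (each of 4, 5, 7, 7.1, 7.2 and 7.3), with log2 fold changes of -0.32 to -0.21 over the 9 fits.
Stat2, another subunit of ISGF3, had a log2 fold change of -0.12 and did not pass the test (95% confidence interval -0.27 to 0.027). Irf7, which amplifies the production of type I interferon, had one of -0.14 (limma adjusted p = 0.086), and of -0.19 (limma adjusted p = 0.0078) without clone 7.3, the highest of the RAW-FoxQ1 clones for this gene.

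Among further genes of the pathway outside the 42, 5 of 9 receptors and JAK-STAT transducers were lower and none higher. Over all genes these shares were 21.4% and 19.6%. Stat3 was lower by a log2 fold change of -0.66, the kinase Jak2 of the interferon-gamma receptor of -0.63, the interferon-gamma receptor subunit Ifngr1 of -0.51 and Tyk2 of -0.47 (limma adjusted p-values of 4.4e-05 to 0.011). In a fit with the poly-A spike-in level as covariate (RNA added to each sample as a labelling control) Stat3 kept its call, while Ifngr1 (-0.25, limma adjusted p = 0.42), Jak2 (-0.56, 0.10) and Tyk2 (-0.63, 0.12) lost theirs. Jak1 did not pass the test (-0.16, limma adjusted p = 0.152), and passed without clone 7.4 (-0.21, limma adjusted p = 0.043).
Of 6 other members of the IRF family, Irf2 (-0.97) and Irf8 (-0.93) were lower and 4 did not pass the test, among them Irf3 at 0.13 (limma adjusted p = 0.169, and 0.19 with 0.031 without clone 6). With the poly-A covariate Irf2 lost its call (-0.55, limma adjusted p = 0.14) and Irf8 kept it. Irf8 directs monocyte development and Irf3 starts the transcription of interferon-beta. Of 19 interferon genes 7 were matched to a row, and Ifna9 alone passed the test, with -0.25. Ifnb1, the gene of interferon-beta, had a log2 fold change of -0.086 (limma adjusted p = 0.257), and Ifng one of 0.034 (limma adjusted p = 0.549). In RAW-vector and RAW-FoxQ1 clones the means rank at percentiles 24.2 and 19.8 for Ifnb1 and 5.09 and 6.19 for Ifng. Both lie near background, so these differences do not bound the change of the mRNA.
Of 15 negative regulators 5 were higher and 6 lower, beside 19.6% and 21.4% of all genes. Nlrx1, a mitochondrial protein that dampens signalling from MAVS, rose by 0.64 on the log2 scale, whereas Trex1, a nuclease that removes cytosolic DNA, fell by 0.76. Socs1, which inhibits the JAK kinases, had a log2 fold change of -0.072 (limma adjusted p = 0.196), and one of -0.10 without clone 6 (limma adjusted p = 0.0496).

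**Figure D1:**
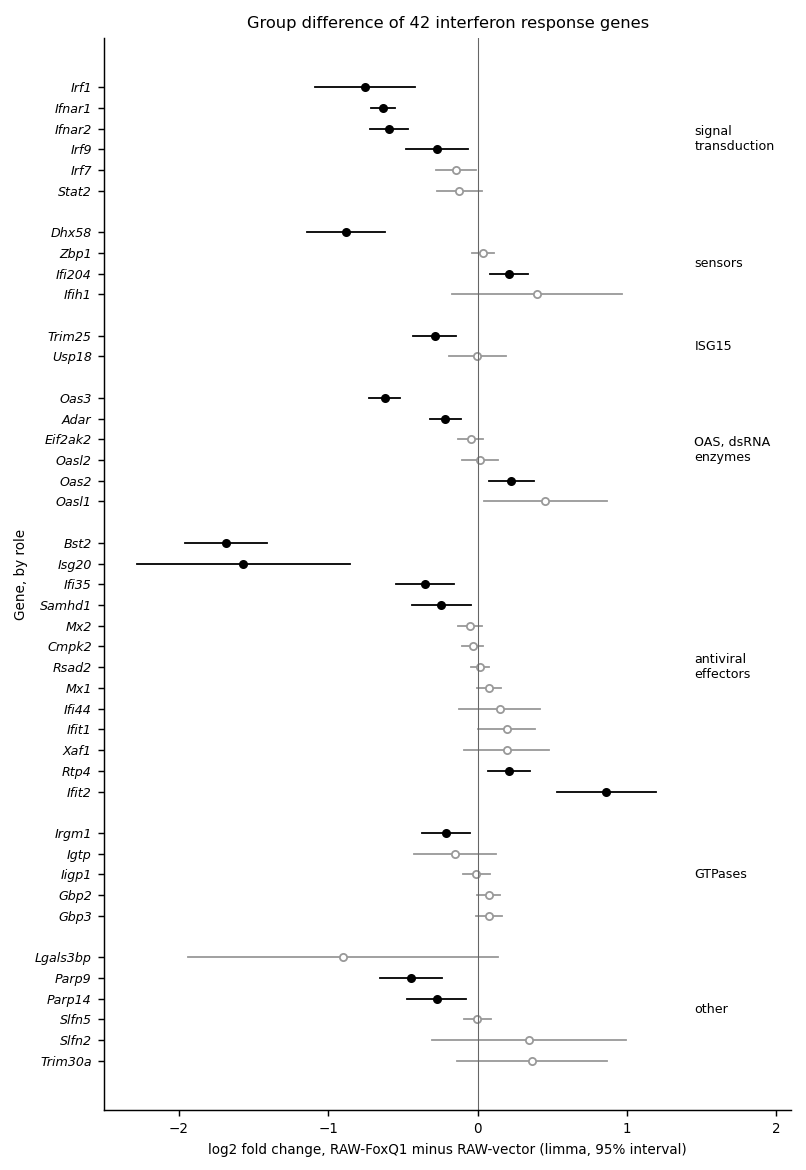
Log2 fold change of each of the 42 interferon response genes (x axis, RAW-FoxQ1 minus RAW-vector) with limma's 95% confidence interval, grouped by role (y axis). Filled black points passed the test at an adjusted p under 0.05, and open grey points did not. Bst2 (-1.68) and Isg20 (-1.57) lie farthest to the left and Ifit2 (0.86) farthest to the right.

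The sensors of nucleic acids went in different directions. Dhx58 (LGP2), a helicase that tunes signalling by the sensors RIG-I and MDA5, measured 7.93, 7.65, 7.59 and 7.77 in RAW-vector clones. In RAW-FoxQ1 clones it measured 7.13, 6.64, 6.60, 6.99 and 6.90, all below the RAW-vector clones. The log2 fold change was -0.88 (SE 0.117, limma adjusted p = 2.4e-04). The RAW-FoxQ1 mean of Dhx58 ranks low, at percentile 30.6 of the array signal, so this difference of signal can understate that of the mRNA.
Ifi204, a p200-family sensor of DNA, measured 5.86, 5.94, 5.91 and 5.85 in RAW-vector clones and 6.13, 6.24, 6.12, 6.07 and 5.94 in RAW-FoxQ1 clones. The groups touched without overlap at clones 5 and 7.5, and the gene was higher by a log2 fold change of 0.21 (limma adjusted p = 0.013). It was among the dimmest genes of the array, at percentile 0.261 in RAW-vector and 2.04 in RAW-FoxQ1 clones, so its level is poorly resolved from background. Zbp1, a sensor of Z-form nucleic acids, did not pass the test (0.036, 95% confidence interval -0.039 to 0.11). Its means rank low, at percentile 31.7 in RAW-vector and 33.2 in RAW-FoxQ1 clones, so this interval need not bound the change of the mRNA.
Of 22 further sensors and adaptors 6 were higher and 8 lower, beside 19.6% and 21.4% of all genes. Azi2 (0.68) and Ikbke (0.62), an adaptor and a kinase upstream of IRF3, led those that rose. The cytosolic DNA sensor Aim2 (-0.78), Unc93b1 (-0.66), which carries Toll-like receptors to endosomes, and the RNA receptor Tlr7 (-0.53) led those that fell. Mavs, the adaptor of RIG-I and MDA5, fell by 0.26 on the log2 scale (limma adjusted p = 0.014). With the poly-A covariate Mavs was at -0.089 (limma adjusted p = 0.72), and Unc93b1 (-0.55, 0.16) and Ikbke (0.86, 0.0502) also lost the call.

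In the ISG15 system, Trim25, a ubiquitin ligase that activates RIG-I, measured 10.09, 10.16, 10.17 and 10.04 in RAW-vector clones and 9.72, 9.80, 10.03, 9.81 and 9.76 in RAW-FoxQ1 clones. It was lower in all RAW-FoxQ1 clones, with clone 7.3 close to the RAW-vector range, and the log2 fold change was -0.29 (limma adjusted p = 0.0048). Usp18, which removes ISG15 from its targets and blocks the receptor, did not pass the test (-0.0026, 95% confidence interval -0.20 to 0.19). Uba7, the enzyme that activates ISG15, is not among the 42 and fell by 0.94 on the log2 scale (limma adjusted p = 1.3e-04).

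The oligoadenylate synthetases, which make the activator of RNase L upon binding double-stranded RNA, did not move together. Oas3 measured 8.47, 8.36, 8.38 and 8.38 in RAW-vector clones and 7.82, 7.66, 7.85, 7.82 and 7.72 in RAW-FoxQ1 clones. The groups lay apart by more than their own ranges, with a log2 fold change of -0.62 (SE 0.047, limma adjusted p = 7.5e-06). Oas2 on the same chromosome was higher, with 8.00, 8.14, 8.01 and 7.91 in RAW-vector clones and 8.11, 8.11, 8.32, 8.35 and 8.30 in RAW-FoxQ1 clones, and the groups overlapped. Its log2 fold change of 0.22 (limma adjusted p = 0.024) lost the call when any of clones 4, 6, 7, 7.4 and 7.5 was left out, with 0.19 to 0.27 over the 9 fits.
Oasl1, which in mice limits the translation of Irf7, measured 7.39, 7.55, 7.54 and 7.43 in RAW-vector clones and 7.61, 7.73, 8.63, 7.71 and 7.97 in RAW-FoxQ1 clones. The groups did not overlap, but clone 7.3 stood high, and the difference did not pass the test (0.45, limma adjusted p = 0.078). Without clone 7.3 it was smaller, 0.28, and passed (limma adjusted p = 0.017). Oasl2 (0.016) and the kinase Eif2ak2 (PKR), which halts translation (-0.046), did not pass the test. Adar, which edits adenosine to inosine in double-stranded RNA, measured 8.93, 8.99, 8.90 and 8.88 in RAW-vector clones and 8.71, 8.61, 8.68, 8.83 and 8.71 in RAW-FoxQ1 clones. The groups did not overlap, and it fell by 0.22 on the log2 scale (limma adjusted p = 0.0041).

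The antiviral effectors held the largest changes in both directions. Bst2 (tetherin), which holds budding virions at the cell surface, measured 10.81, 10.95, 10.75 and 10.73 in RAW-vector clones and 9.39, 9.14, 8.78, 9.35 and 8.96 in RAW-FoxQ1 clones. All RAW-FoxQ1 clones were lower by more than the range of either group. The log2 fold change was -1.68 (SE 0.123, limma adjusted p = 6.6e-06).
Isg20, an exonuclease that degrades viral RNA, measured 8.65, 8.09, 7.81 and 9.60 in RAW-vector clones and 7.40, 6.82, 6.89, 6.89 and 6.85 in RAW-FoxQ1 clones. RAW-vector clones differed widely, with clone 7 highest and clone 6 lowest, and RAW-FoxQ1 clone 7.1 lay above the others of its group. The groups did not overlap, and the log2 fold change was -1.57 (SE 0.318, limma adjusted p = 0.0030). The RAW-FoxQ1 mean of Isg20 ranks low, at percentile 35.4, so this difference of signal can understate that of the mRNA.
Ifit2, which binds viral RNA and impairs its translation, measured 6.62, 6.76, 6.81 and 6.67 in RAW-vector clones and 7.66, 7.30, 7.18, 7.87 and 7.87 in RAW-FoxQ1 clones. All RAW-FoxQ1 clones were higher, with clones 7.4 and 7.5 at the top, and the log2 fold change was 0.86 (SE 0.146, limma adjusted p = 0.0011). The RAW-vector mean of Ifit2 ranks at percentile 24.1 of the array signal, near background, so that 0.86 is a difference of signal and can understate that of the mRNA.
Ifit1, a reader of viral RNA caps in the same gene cluster, did not pass the test (0.19, limma adjusted p = 0.103), and passed without RAW-FoxQ1 clone 7.1 (0.24, limma adjusted p = 0.043).
By exact permutation of the 9 clones (two-sided) p was 0.00794 for Bst2, Isg20, Dhx58, Irf1, Ifnar1, Ifnar2 and Oas3, the smallest that 5 clones against 4 allow, and 0.0159 for Ifit2.

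**Figure D2:**
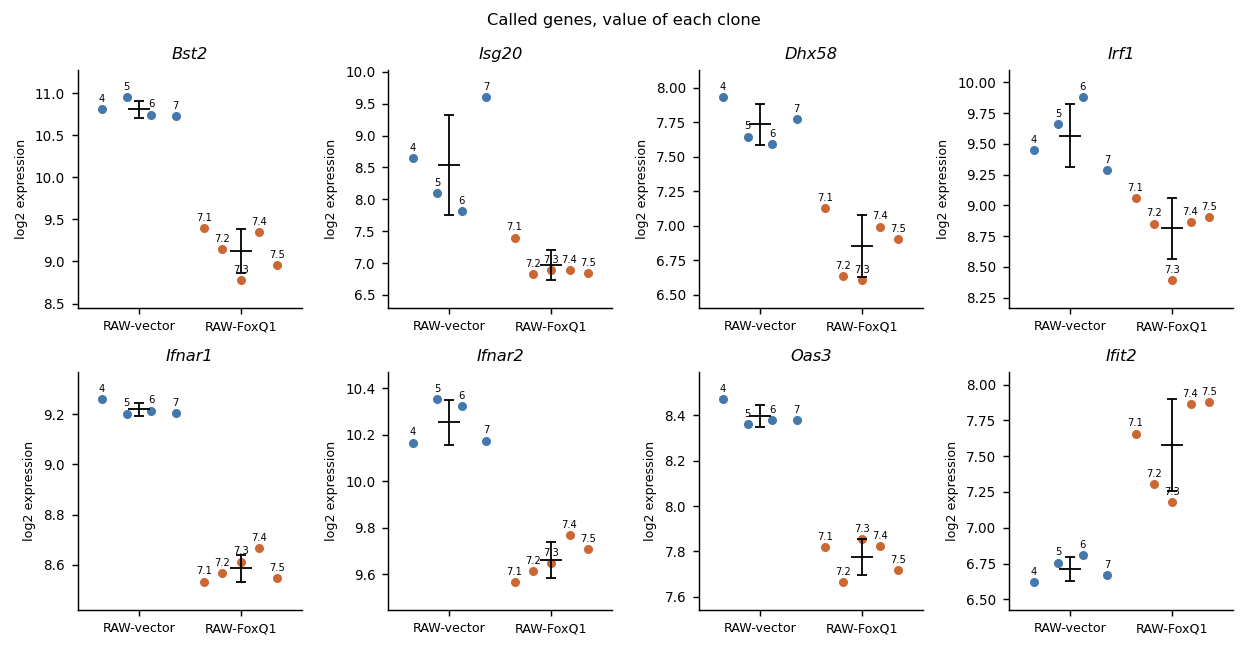
Log2 expression (y axis, a separate scale per panel) of 8 genes that passed the test, for 4 RAW-vector clones (blue) and 5 RAW-FoxQ1 clones (orange), with the clone number above each point. Black bars give the mean and SD of each group. In every panel the groups do not overlap, and Ifit2 is the only gene shown that is higher in RAW-FoxQ1 clones.

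Ifi35, an interferon-induced leucine zipper protein, measured 9.34, 9.58, 9.64 and 9.26 in RAW-vector clones and 9.14, 9.09, 8.94, 9.13 and 9.21 in RAW-FoxQ1 clones, with a narrow gap between the groups. Ifi35 (-0.35) and the dNTP hydrolase Samhd1 (-0.24) were lower, and Rtp4 was higher (0.21), from a dim level at percentile 19.5 in RAW-vector clones. The adjusted p from limma was 0.0082 for Ifi35, 0.0497 for Samhd1 and 0.023 for Rtp4. Samhd1 ranged from 9.97 to 10.49 in RAW-vector and from 9.92 to 10.03 in RAW-FoxQ1 clones, which overlapped. Its call was lost in 8 of the 9 fits that leave out 1 clone, all but that without RAW-vector clone 7, and its log2 fold change was -0.15 without clone 6. Rtp4 lost its call without any of clones 4, 5 and 7.4, with log2 fold changes of 0.17 to 0.25 over the 9 fits.
Mx1, Mx2, Rsad2, Cmpk2, Ifi44 and Xaf1 did not pass the test. Their log2 fold changes lay between -0.055 for Mx2, a GTPase that acts on viruses in the cytoplasm, and 0.19 for Xaf1, a partner of the apoptosis inhibitor XIAP. For Rsad2 (viperin), which makes a chain-terminating nucleotide, the 95% confidence interval was -0.048 to 0.075. For its neighbour Cmpk2 it was -0.10 to 0.038. In RAW-vector and RAW-FoxQ1 clones the means rank at percentiles 25.4 and 25.8 for Rsad2 and 30.4 and 28.8 for Cmpk2. This is a low signal, so these intervals need not bound the change of the mRNA.

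The interferon-inducible GTPases showed the smallest changes. Of 5 measured, Irgm1, which steers the other members on membranes, fell by 0.21 on the log2 scale (limma adjusted p = 0.038). It measured 8.49, 8.49, 8.49 and 8.39 in RAW-vector clones and 8.24, 8.16, 8.06, 8.39 and 8.41 in RAW-FoxQ1 clones, and the groups overlapped through clones 7 and 7.5. Its call was lost in 6 of the 9 fits, those without clone 4, 5, 6, 7.1, 7.2 or 7.3, with log2 fold changes of -0.25 to -0.17 over the 9. Igtp (-0.15), Iigp1 (-0.0086), Gbp2 (0.072) and Gbp3 (0.072) did not pass the test.
Gbp2, Gbp3 and Iigp1 are 3 of 9 genes among the 42 whose means in both groups rank under the 25 percentile of the array signal. The other 6 are Ifi204, Usp18, Oasl2, Mx1, Ifi44 and Slfn5, and of the 9 only Ifi204 was called. For these genes signal over background limits what the arrays can show, so a difference that did not pass does not bound the change of the mRNA.

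Parp9 and Parp14, ADP-ribosyltransferase-family genes of chromosome 16, were lower. Parp9 measured 9.55, 9.25, 9.38 and 9.51 in RAW-vector clones and 9.07, 8.91, 8.74, 9.19 and 8.96 in RAW-FoxQ1 clones, with no overlap and a log2 fold change of -0.45 (limma adjusted p = 0.0036). Its partner Dtx3l, a ubiquitin ligase on the same chromosome outside the 42, fell by 1.48 on the log2 scale (SE 0.109, limma adjusted p = 6.7e-06). Parp14 measured 7.64, 7.59, 7.68 and 7.52 in RAW-vector clones and 7.36, 7.16, 7.13, 7.56 and 7.43 in RAW-FoxQ1 clones, which overlapped through clone 7.4. It had a log2 fold change of -0.28 (limma adjusted p = 0.029), and its call was lost without clone 4, 5, 6 or 7.2, with -0.33 to -0.23 over the 9 fits.
Of 63 further interferon-stimulated genes on the array, 8 were higher and 15 lower, beside 19.6% and 21.4% of all genes. The increases were led by Mlkl, the executor of necroptosis, at 1.19, Pnpt1, a mitochondrial RNA-degrading enzyme, at 0.69, the immunoproteasome subunit Psmb8 at 0.56 and the chemokine Cxcl10 at 0.43 on the log2 scale. Cxcl10 lost its call without clone 4 (0.40, limma adjusted p = 0.060) and with the poly-A covariate (0.59, limma adjusted p = 0.15). The decreases were led by Ly6e, a membrane-anchored protein that restricts coronaviruses, at -5.71 (SE 0.552), and after Dtx3l and Uba7 came the inflammatory caspase Casp4 at -0.86. Ly6e measured 12.80 to 13.13 in RAW-vector clones, 9.49 in clone 7.3 and 6.43 to 7.01 in the remaining RAW-FoxQ1 clones. The lowest of these values lie in the dim range, so that its difference of signal can understate that of the mRNA. The median log2 fold change of these 63 genes was -0.070.

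**Figure D3:**
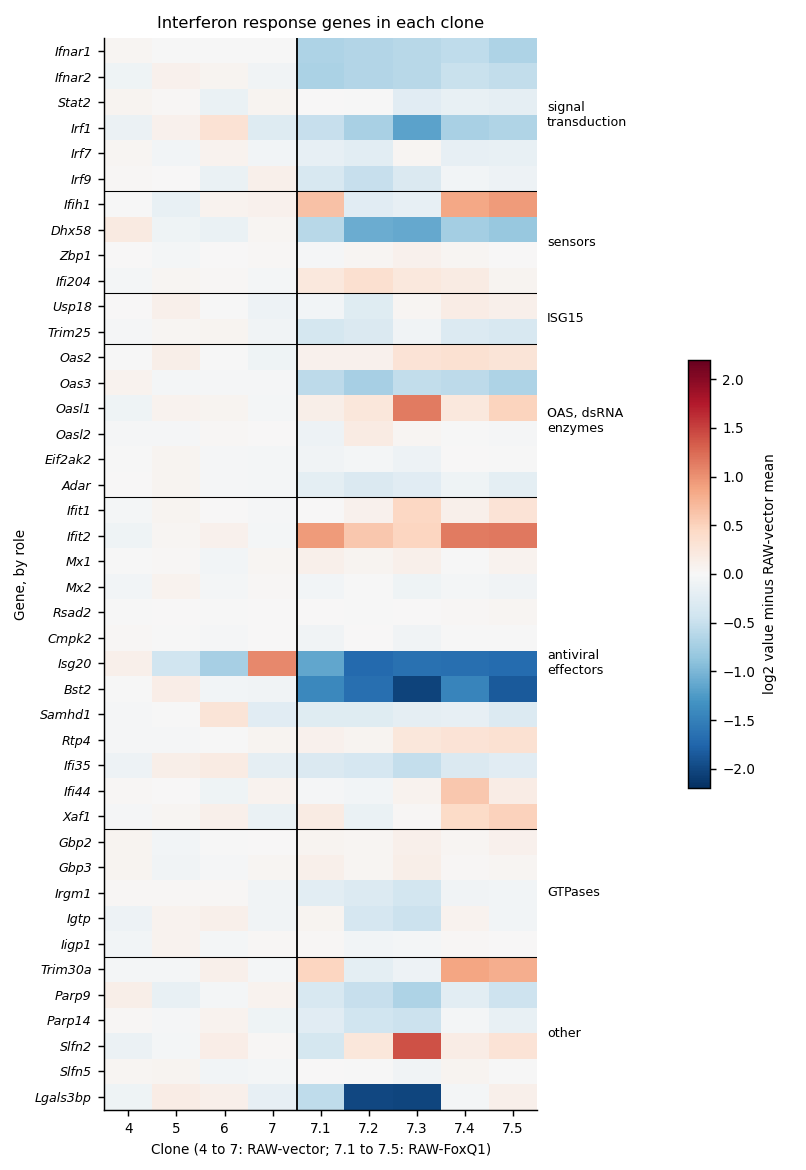
Difference of the log2 value of each clone from the RAW-vector mean (colour, red higher and blue lower) for the 42 interferon response genes (rows, grouped by role) in RAW-vector clones 4 to 7 and RAW-FoxQ1 clones 7.1 to 7.5 (columns). Ifnar1, Ifnar2, Dhx58, Oas3, Isg20 and Bst2 are blue in all 5 RAW-FoxQ1 clones, while Ifih1, Trim30a and Lgals3bp differ among them.

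Counted by overlap of the clones, all RAW-FoxQ1 clones lay above all RAW-vector clones for 4 of the 42 genes and below them for 11. Over all genes these shares were 17.3% and 18.8%. The median difference of the 42 genes from the RAW-vector mean was -0.068 in clone 7.1, -0.18 in clone 7.2, -0.084 in clone 7.3, -0.0016 in clone 7.4 and -0.0069 in clone 7.5. Over all genes this median lay between -0.021 and -0.0065 in the 5 clones. Clone 7.2 was the lowest of the RAW-FoxQ1 clones by this measure, and clones 7.4 and 7.5 were the closest to the RAW-vector clones.

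The interferon response genes varied more among RAW-FoxQ1 than among RAW-vector clones. The SD was larger in RAW-FoxQ1 clones for 32 of the 42 genes (76.2%), against 48.5% of all genes. The median SD was 0.0717 in RAW-vector and 0.120 in RAW-FoxQ1 clones, while over all genes it was 0.0750 and 0.0731. This comparison was made after the values were seen and is given as a description, with no test.

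**Figure D4:**
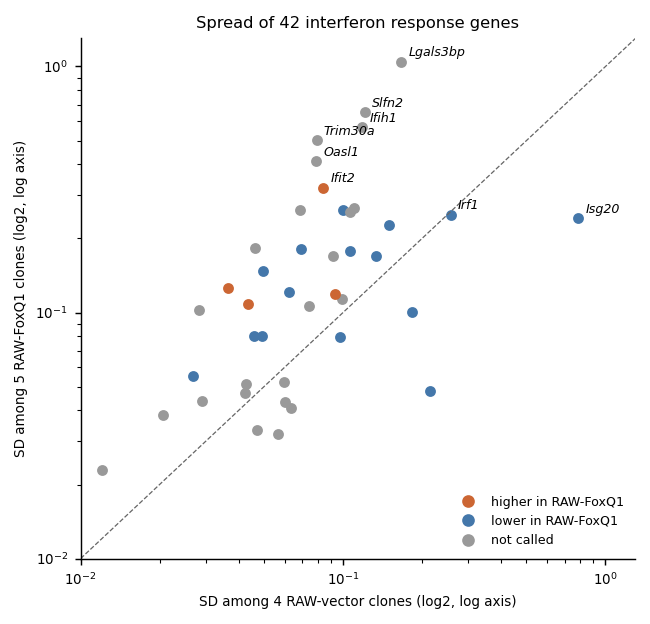
SD of the log2 values among the 4 RAW-vector clones (x axis) and among the 5 RAW-FoxQ1 clones (y axis) of each of the 42 genes, on log axes. Points above the dashed line of equal SD, 32 of 42, spread more among RAW-FoxQ1 clones. Samhd1 (0.215 in RAW-vector and 0.0482 in RAW-FoxQ1 clones) lies farthest below it, followed by Isg20 (0.789 and 0.241). Colours give the call of each gene.

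Lgals3bp, a secreted glycoprotein that binds galectins, had the largest spread, with an SD of 1.05 in RAW-FoxQ1 clones and 0.166 in RAW-vector clones. It measured 9.27, 9.54, 9.48 and 9.19 in RAW-vector clones and 8.82, 7.37, 7.34, 9.33 and 9.48 in RAW-FoxQ1 clones. Clones 7.4 and 7.5 lay within the RAW-vector range and clones 7.2 and 7.3 far below it, and the group difference did not pass the test (-0.90, limma adjusted p = 0.157). It was -0.63 without clone 7.2 and -0.62 without clone 7.3.
Ifih1 (MDA5), the sensor of long double-stranded RNA, measured 6.89, 6.73, 6.97 and 7.00 in RAW-vector clones and 7.54, 6.65, 6.72, 7.74 and 7.83 in RAW-FoxQ1 clones. Clones 7.1, 7.4 and 7.5 lay above all RAW-vector clones and clones 7.2 and 7.3 below them. The group difference of 0.40 did not pass the test (limma adjusted p = 0.256, 95% confidence interval -0.17 to 0.97).
Trim30a, a regulator of Toll-like receptor signalling, was arranged alike, with 6.64, 6.65, 6.80 and 6.65 in RAW-vector clones and 7.16, 6.47, 6.58, 7.55 and 7.48 in RAW-FoxQ1 clones. Here also clones 7.1, 7.4 and 7.5 were above and clones 7.2 and 7.3 below the RAW-vector clones (0.36, limma adjusted p = 0.235). The RAW-vector means rank at percentile 32.7 for Ifih1 and 22.7 for Trim30a. Values below them are poorly resolved from background, and Ifih1 in clone 7.3 (6.72) was barely under the lowest RAW-vector clone (6.73). Xaf1 measured 7.38, 7.06, 7.23, 7.62 and 7.70 in RAW-FoxQ1 clones and 7.06 to 7.32 in RAW-vector clones. Ifi44 was highest in clone 7.4, at 7.12, and measured 6.47 to 6.69 in the remaining RAW-FoxQ1 clones.
Clones 7.4 and 7.5 held the highest values of the RAW-FoxQ1 clones for 15 of the 42 genes (35.7%), among them Ifih1, Ifit2, Trim30a, Xaf1, Ifi44, Rtp4 and Lgals3bp. Over all genes this pair held them for 12.5%. The pair was singled out after the values were seen, and the share is a description.
Slfn2, which keeps T cells quiescent, and Oasl1 followed another order, with clone 7.3 highest. Slfn2 measured 8.50 to 8.79 in RAW-vector clones and 8.24, 8.88, 10.04, 8.79 and 8.94 in RAW-FoxQ1 clones. Its difference of 0.34 (limma adjusted p = 0.399) was 0.078 without clone 7.3. Slfn5 of the same family did not differ in this way, with 6.43 to 6.58 in RAW-FoxQ1 and 6.45 to 6.56 in RAW-vector clones.

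**Figure D5:**
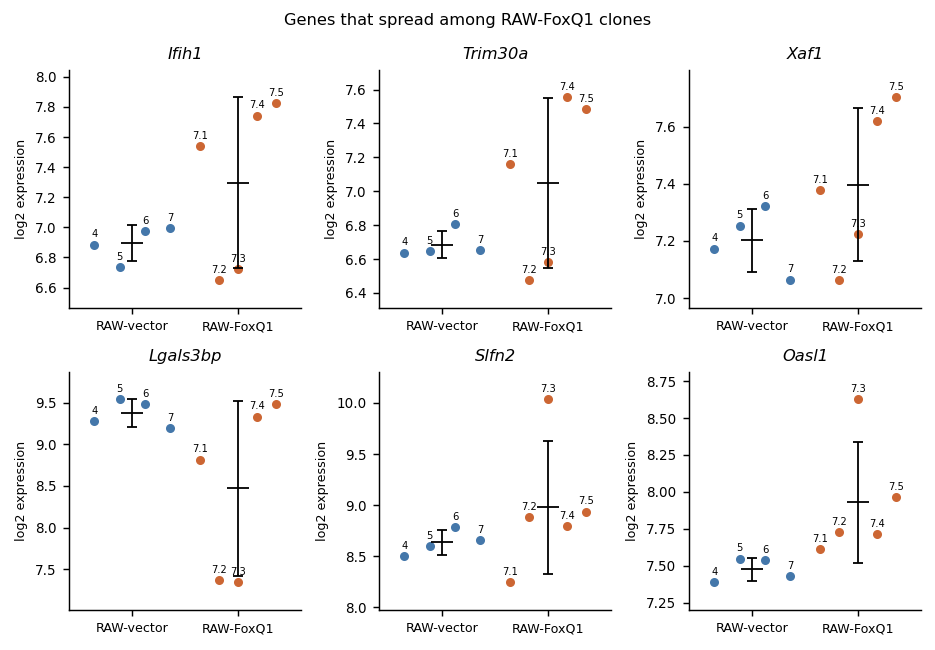
Log2 expression (y axis, a separate scale per panel) of 6 interferon response genes that spread among RAW-FoxQ1 clones, with the clone number above each point and black bars for the mean and SD. Clones 7.2 and 7.3 are the lowest RAW-FoxQ1 clones for Ifih1, Trim30a, Xaf1 and Lgals3bp, and clone 7.3 is the highest for Slfn2 and Oasl1.

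On the arrays as a whole, Foxq1 was higher in all RAW-FoxQ1 clones (7.27 to 7.44) than in RAW-vector clones (6.94 to 7.01). The log2 fold change was 0.39 (limma adjusted p = 4.7e-05). All these values lie below the array medians of 7.48, so this difference of signal can understate that of the mRNA. Among 12 monocyte and macrophage markers RAW-FoxQ1 clones had 2 higher and 5 lower, beside 19.6% and 21.4% of all genes. The higher markers were Aif1 (0.58) and Fcgr1 (0.54). The lower ones were Emr1 (-2.38, with clone 7.3 lowest at 7.14), Mpeg1 (-1.60), Itgam (-0.65), Cd68 (-0.41) and Tyrobp (-0.35). The fall of Emr1, which encodes F4/80, was larger than that of any of the 42 genes that passed the test, and the part of these marker changes in the results was not tested. Csf1r (13.24 and 13.25 in the RAW-vector and RAW-FoxQ1 means), Lyz2 and Spi1 were strongly expressed in both groups. Of 4 markers of plasmacytoid dendritic cells, the main source of type I interferon, Bst2 and Tcf4 were lower. Bst2 is itself among the 42 genes. Siglech and Ccr9 did not pass the test. In RAW-vector and RAW-FoxQ1 clones their means rank at percentiles 27.2 and 35.3 for Siglech and 9.58 and 9.75 for Ccr9. With such low signal their differences need not bound the change of the mRNA. The mean of 27 probe sets for poly-A spike-ins, which are added to the RNA as a control of labelling, differed by -0.50 (log2, RAW-FoxQ1 minus RAW-vector, exact permutation p = 0.0159, two-sided), and their part in the results was not tested beyond a fit with them as a covariate. In that fit 2 interferon response genes were higher, Ifit2 (1.27) and Rtp4 (0.39). Lower were 5: Bst2 (-1.75), Ifnar1 (-0.68), Oas3 (-0.68), Ifnar2 (-0.55) and Trim25 (-0.42). Over all 16492 genes the same fit called 1461 higher and 1274 lower. Isg20 (-1.08), Irf1 (-0.79), Dhx58 (-0.71), Parp9 (-0.39), Samhd1 (-0.48), Ifi35 (-0.32), Adar (-0.17), Parp14 (-0.16), Irgm1 (-0.037), Oas2 (0.31) and Ifi204 (0.013) kept their sign and lost the call, and Irf9 (0.049) turned its sign. The covariate has a correlation of -0.86 with the group, so the fit can hardly separate the pair.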

How the data were processed

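RNA of 9 RAW-264.7 clones was measured on 9 Affymetrix mouse genome arrays. Per the methods, the authors grouped probes by Entrez gene with a custom definition file (version 12), applied quantile normalization and compared groups by one-way ANOVA; the submitters' processing notes name RMA. The deposited values are log2 expression values, whose sorted columns are identical, so that a shift of all genes cannot be seen. No scanner files were used, so the background correction stayed as deposited. Precision is limited by the number of arrays.

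The table has 16556 rows, and 64 control probe sets among them were not tested. Row names are Entrez IDs, of which 16240 were named through a RefSeq gene table (GRCm38.p6) and 18 through the platform table alone, and 234 stay unnamed. Log2 values were fitted with limma 3.58.1 (R 4.3.3; lmFit, eBayes) with no covariate, and p-values were adjusted by Benjamini-Hochberg over 16492 genes. The script was first tested on simulated data. Single genes were also compared by exact permutation over 126 splits of the clones. P-values measure the spread between clones.

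The members and lists were chosen with earlier results of these data known. Values in each clone are given for up to 4 called genes per role by size of change, or by their range; genes with a large spread among RAW-FoxQ1 clones were chosen after their values were seen. Of each further list, up to 4 called genes per direction and key genes of the pathway may be named. One of these is not reported here. Alternatives were the methods' ANOVA, cyclic loess, array weights, a trended and robust eBayes, a filter on dim genes (under the 40 percentile), averaging of rows of 1 symbol, the poly-A covariate, and leaving out each clone.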

Additional observations from a re-analysis of the deposited data

Results flagged for a closer look

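In 13 of 160 groups of clones (80 named genes in 2 groups each), the highest or lowest clone stood apart from the others by Dixon's criterion, which chance alone gives in about 1 in 20. Of these, 7 concern the 42 interferon response genes. Stat2 was lowest in RAW-vector clone 6 (7.03, next 7.21), Oas3 highest in RAW-vector clone 4 (8.47, next 8.38), Irgm1 lowest in RAW-vector clone 7 (8.39, next 8.49) and Trim30a highest in RAW-vector clone 6 (6.80, next 6.65). Among RAW-FoxQ1 clones, Isg20 was highest in clone 7.1 (7.40, next 6.89), and Irf7 (7.84, next 7.64) and Trim25 (10.03, next 9.81) were highest in clone 7.3. Clone 7.3 accounts for 5 of the 13, with Ly6e highest (9.49, next 7.01) and Trex1 (9.44, next 9.79) and Uba7 (7.68, next 8.01) lowest. The others are Azi2, highest in RAW-vector clone 6 (8.72, next 8.54), Socs1, lowest in RAW-FoxQ1 clone 7.4 (6.82, next 6.89), and Casp4, lowest in RAW-FoxQ1 clone 7.2 (7.38, next 7.49).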

How the results depend on the processing

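With the poly-A spike-in covariate 2 interferon response genes were called higher and 5 lower. Over all 16492 genes 2735 were then called, 1461 higher and 1274 lower. With dim genes left out 2 were higher, since 16 of the 42 genes were then not tested, and 15 were lower. Of the 9895 genes tested in that fit 2929 were higher and 3121 lower. Leaving out 1 RAW-vector clone gave 2 to 3 higher, and 1 RAW-FoxQ1 clone 2 to 5, with 11 to 14 lower in either case. Over all genes these fits called 2885 to 3171 higher and 3065 to 3474 lower. The other settings (ANOVA, trend and robust, array weights, cyclic loess, averaged rows) gave 4 higher and 11 to 15 lower. Over all genes they gave 2971 to 3392 higher and 3177 to 3806 lower. Of 19 calls, 13 were kept in all 9 fits that leave out 1 clone and 7 with the covariate. Calls over all genes also fell, from 6748 to 2735 with the covariate and to 5950 to 6645 without 1 clone. These are totals and can include genes not called in the main fit. Signs turned with array weights Usp18 (0.012), with cyclic loess Usp18 (0.010) and Slfn5 (0.0032), and with the covariate Irf9 (0.049), Zbp1 (-0.0032), Usp18 (0.16), Oasl2 (-0.078), Eif2ak2 (0.015), Igtp (0.027), Iigp1 (0.090), Slfn5 (0.025) and Lgals3bp (0.52). None of these passed the test there, and of them Irf9 alone had passed it without the covariate. Without 1 RAW-vector clone the log2 fold change ranged from -0.041 to 0.034 for Usp18, -0.022 to 0.015 for Slfn5 and -0.027 to 0.016 for Iigp1. Without 1 RAW-FoxQ1 clone it ranged from -0.044 to 0.064 for Usp18, -0.020 to 0.017 for Slfn5, -0.018 to 0.0052 for Iigp1 and -0.024 to 0.045 for Oasl2. The cause was not tested. Signal over background limits the dim genes. Background correction could not be varied. No paired analysis was possible because the groups share no clone numbers.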
